A study of Mus musculus with 6 samples.

Results

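The genes described are those of the serine-threonine phosphatase subunits, the catalytic and regulatory parts of the enzymes PP1, PP2A, PP2B, PP4, PP5 and PP6. Members were taken by symbol: Ppp followed by a digit from 1 to 6 and then by c (catalytic) or r (regulatory). This matched 88 of the 49523 symbols in the count table, and 11 were left out, namely Ppp1r15a and 10 pseudogene symbols. Of the 77 members kept, 57 had a summed count of 60 or more over the 6 libraries, which is the condition for giving a value. Within the rule, members were selected on their symbol and on the count summed over both groups; the family itself was picked with earlier results of these data known. The 57 were 11 catalytic subunits, 45 regulatory subunits and Ppp1ccb, a retrocopy of Ppp1cc.

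Sequenced RNA came from EO771, a line of mouse mammary carcinoma cells. The labels give 3 libraries as cancer stem cells (CSC) and 3 as cells that are not (non-CSC). Both groups were the same line, and the labels give no treatment, allele, sorting marker or culture time for either. The design is a single comparison of gene expression, CSC against non-CSC. Whether replicates were separate cultures is not stated, so the p-values rest on a spread between libraries that may be technical.

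Phosphatases of this family remove phosphate groups from serine and threonine residues. PP1 and PP2A supply much of this activity in cells, and a few catalytic subunits are directed to many substrates by a large set of regulatory subunits that target, inhibit or assemble them. PP2B, also called calcineurin, is activated by calcium and calmodulin and dephosphorylates NFAT transcription factors. PP4, PP5 and PP6 are smaller branches, with known roles in DNA repair, chaperone complexes and mitosis.

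Library totals ranged from 27099879 to 35971131 counts. The level of a gene is given as CPM (counts scaled to a common library size in which all genes sum to the same total, with TMM factors), and changes are log2 fold changes of CSC over non-CSC with their standard error (SE, after the ± sign), from edgeR's quasi-likelihood test. A gene passed the test at a Benjamini-Hochberg adjusted p under 0.05 over all 17630 genes tested. The biological coefficient of variation common to all genes, a measure of the spread between replicates, was 4.11%. Sums of marker genes were scaled by the total of each library without TMM factors, unlike the values of single genes. Epithelial markers were present in both groups, with a summed level of 3255 to 3379 CPM in non-CSC and 4185 to 4347 CPM in CSC. Cdh1 (E-cadherin), however, was near 0 (0.952 and 0.752 CPM). Of the 8 epithelial markers 6 passed the test, 2 lower and 4 higher in CSC. The lower were Epcam (21.3 and 10.3 CPM in non-CSC and CSC) and Krt5 (3.64 and 1.01 CPM), and the higher were led by Krt7 (501 and 1057 CPM). The 8 immune markers summed to 26.9 to 28.8 CPM in non-CSC and 36.4 to 38.3 CPM in CSC, with Adgre1 and Cd3e at 0. Cd68 was lower in CSC (25.4 and 17.8 CPM in non-CSC and CSC), while Csf1r (1.85 and 8.06 CPM) and Itgam (0.741 and 10.2 CPM) were higher. The 5 fibroblast markers summed to 539.7 to 574 and 1229 to 1268 CPM, nearly all of it Dcn, with Lum and Thy1 at 0. Endothelial markers summed to at most 0.776 CPM and adipocyte markers to at most 0.0709 CPM. The part of these markers in the results below was not tested, and in bulk RNA fewer cells of a type and less RNA per cell cannot be told apart.

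Subunit genes were more often lower than higher in CSC. Of the 57, 39 passed the test, 32 of them lower and 7 higher. Over all genes tested 66.5% passed, 33.1% lower and 33.4% higher, so the share of the subunit genes that passed was close to the background while their directions were uneven. Among genes with a mean of at least 5 CPM, the level of 51 of the 57, 75.5% passed, 42.4% lower and 33.1% higher. The median log2 fold change was -0.17 for the subunit genes, 0.01 for all genes tested and -0.05 for those of at least 5 CPM. Log2 fold changes were under 0 for 42 subunit genes (73.7%) and over 0 for 15, against 49.0% under 0 for all genes tested and 54.8% for those of at least 5 CPM. The CSC and non-CSC libraries did not overlap for 42 of the 57, against 69.3% of all genes tested and 77.1% of those of at least 5 CPM.

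Most changes were moderate. They ran from a log2 fold change of -1.61 for Ppp1r13l to 0.76 for Ppp1r12b, and 2 genes, Ppp1r13l and Ppp1r3b, fell by more than 2-fold (background 4.09% lower by that much), while no subunit gene rose by as much (background 8.01%). At a log2 fold change of -0.5 or lower there were 16 genes that passed the test (background 14.1%), and at 0.5 or higher 2, Ppp1r12b and Ppp3cc (background 17.8%). Counts of lower and higher genes moved with the scaling of the libraries: upper-quartile scaling gave 29 lower and 10 higher, and plain library sizes 29 lower and 11 higher. The median of the subunit genes was -0.11 and -0.10 under these, while that of all genes rose to 0.07 and 0.08.

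**Figure D1:**
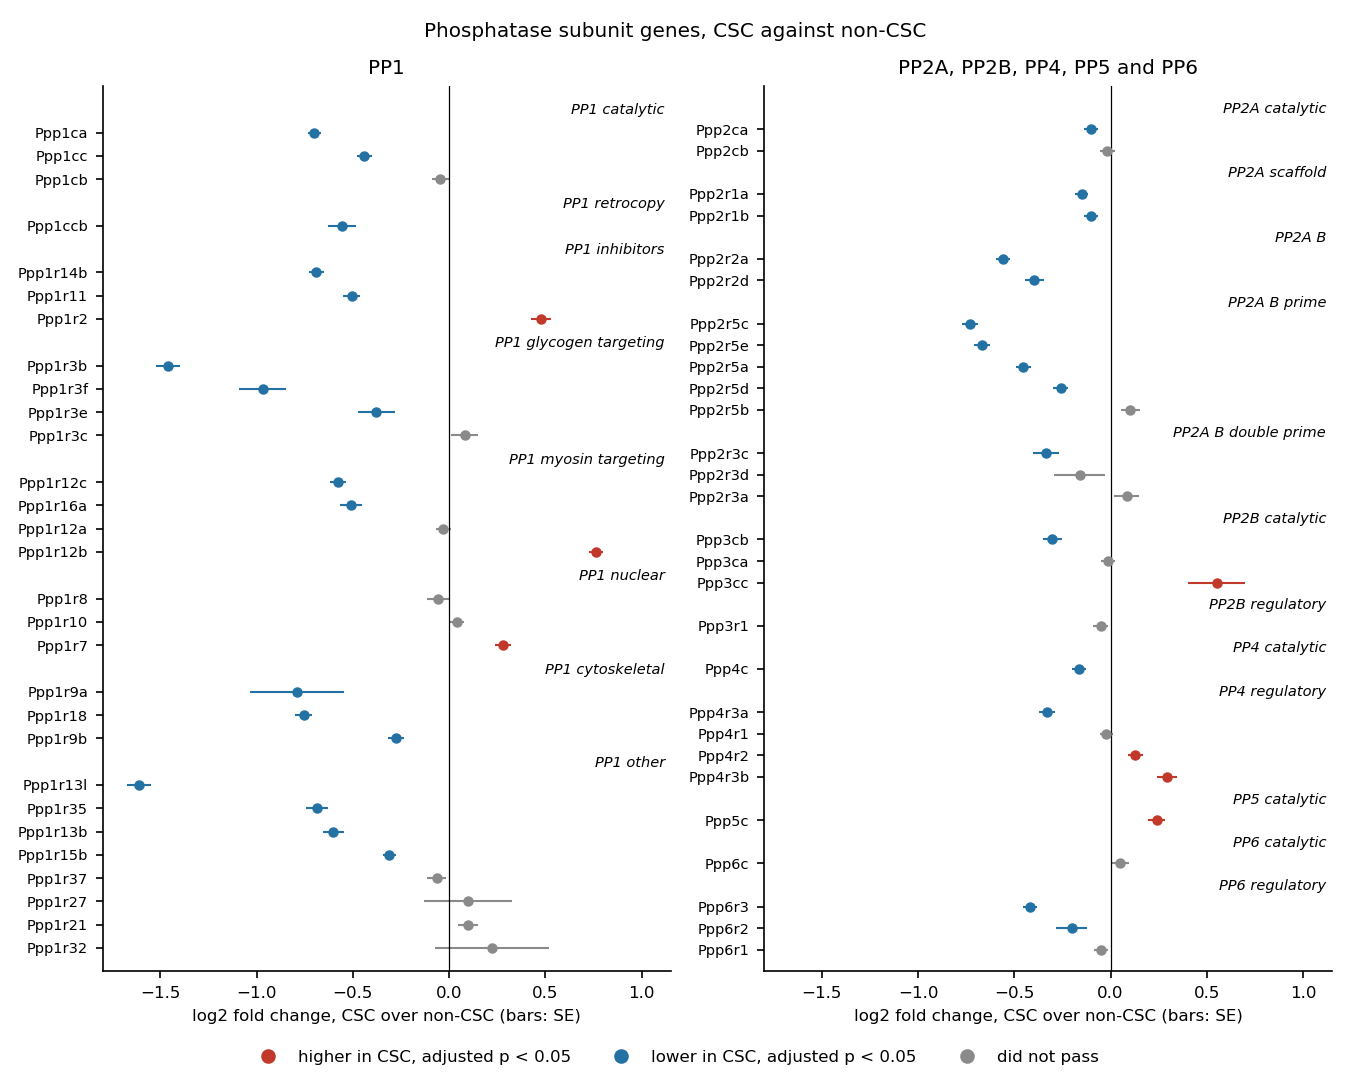
Log2 fold change of CSC over non-CSC for the 57 subunit genes, with 1 point per gene, coloured by call, and bars for 1 standard error. Points to the left of the zero line are lower in CSC: 32 genes passed the test on that side and 7 on the other, from -1.61 for Ppp1r13l to 0.76 for Ppp1r12b.

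**Figure D2:**
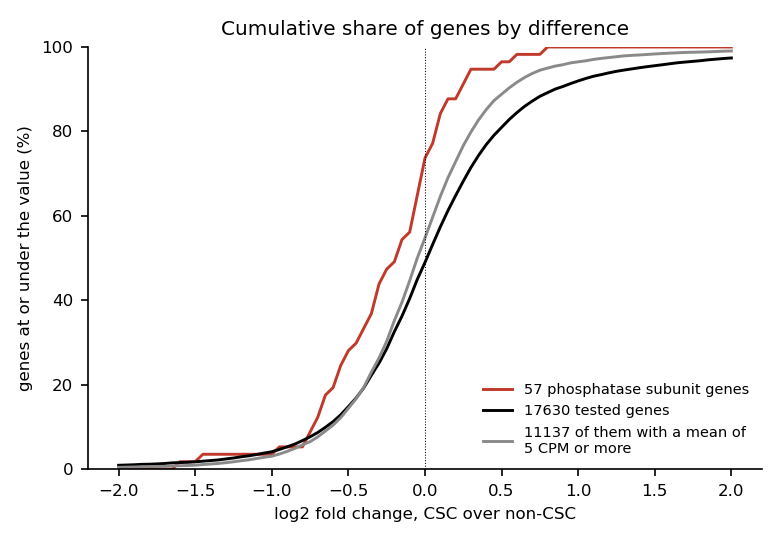
Share of genes (vertical axis, in percent) whose log2 fold change of CSC over non-CSC is at or below the value on the horizontal axis, for the subunit genes, all genes tested and those with a mean of 5 CPM or more. At 0 the curve of the subunit genes has reached 73.7%, against 49.0% for all genes tested and 54.8% for those of at least 5 CPM.

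Both catalytic and regulatory genes fell more often than they rose. Of all genes tested 33.1% fell and 33.4% rose, and of those with a mean of at least 5 CPM 42.4% and 33.1%. Of the 11 catalytic subunits, 5 fell (45.5%), 2 rose (18.2%) and 4 did not pass the test, with a median log2 fold change of -0.05. The share that fell and the median were near those of genes of at least 5 CPM (median -0.05). Of the 45 regulatory subunits, 26 fell (57.8%), 5 rose (11.1%) and 14 did not pass, with a median of -0.26. The difference between the 2 classes was not tested, since the classes are lists of unequal genes and not replicates.

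PP1 has 3 catalytic genes, encoding the alpha, beta and gamma forms, of which 2 fell and 1 did not pass the test. Ppp1ca (alpha; chromosome 19, 4192174 to 4195419, GRCm38.p6) was counted at 767, 749 and 744 CPM in the non-CSC libraries and 468, 468 and 454 CPM in the CSC libraries. Its 3 CSC libraries lay well below every non-CSC library, with a log2 fold change of -0.70 ± 0.034 (edgeR adjusted p = 1.72e-14), a fall of 1.63-fold. The 30 nearest tested genes around it had a median log2 fold change of -0.63. Ppp1cc (gamma; chromosome 5, 122154967 to 122175273) stood at 206, 219 and 206 CPM in the non-CSC libraries and 151, 164 and 150.4 CPM in the CSC libraries. It also fell without overlap, by a log2 fold change of -0.44 ± 0.040 (edgeR adjusted p = 1.51e-09). Ppp1cb (beta) stood at 156, 168 and 176 CPM in the non-CSC libraries and 156, 163 and 166 CPM in the CSC libraries. Those ranges overlapped, and its log2 fold change was -0.05 (95% interval -0.13 to 0.04; edgeR adjusted p = 0.35).

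Summed over the 3 genes, PP1 catalytic RNA was 1131 ± 4.96 CPM in non-CSC and 779.9 ± 13.5 CPM in CSC (SD over 3 libraries each), and all 11 catalytic genes summed to 2048 ± 9.47 and 1655 ± 24.9 CPM. Per kilobase of the principal transcript, Ppp1ca was the main form in both groups. Its share of the PP1 catalytic level per kilobase was 80.9% to 82.2% in non-CSC and 76.8% to 78.0% in CSC. The share of Ppp1cc was 13.6% to 14.6% and then 15.6% to 16.6%, and that of Ppp1cb 4.14% to 4.76% and then 6.41% to 6.98%. The ranges of the groups did not overlap for any of the 3 forms, and with the length of all exons in place of the transcript the share of Ppp1ca was 78.9% to 80.4% against 74.7% to 76.1%.

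The retrocopy Ppp1ccb (chromosome 7, 119739910 to 119742244) is protein-coding in RefSeq and a transcribed processed pseudogene in GENCODE M21. It was counted at 19.6, 21.5 and 18.3 CPM in the non-CSC libraries and 12.5, 14.8 and 13.0 CPM in the CSC libraries, with a log2 fold change of -0.56 ± 0.073 (edgeR adjusted p = 6.48e-07). Its transcript carries the longest coding sequence of Ppp1cc, 1011 bases, with 0 differences. Of the 50-base words of its transcript, 97.6% occur in transcripts of other genes, Ppp1cc among them, and of those of Ppp1cc 54.4% do so. Reads from these stretches cannot be assigned to either gene, so the values of Ppp1cc and Ppp1ccb are uncertain in how they divide. The last 60 bases of that coding sequence (952 to 1011 from the first base of the start codon), read from the GENCODE M21 transcripts, are shown because reads from them cannot separate the genes.
Ppp1cc: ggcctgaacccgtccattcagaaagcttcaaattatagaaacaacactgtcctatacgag
Ppp1ccb: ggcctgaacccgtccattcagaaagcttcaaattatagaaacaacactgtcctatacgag

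PP2A has 2 catalytic genes, and 1 of them fell. Ppp2ca (PP2A alpha) stood at 247, 244 and 250.2 CPM in the non-CSC libraries and 231, 239 and 222 CPM in the CSC libraries. The groups did not overlap, but the fall was slight, with a log2 fold change of -0.10 ± 0.036 (edgeR adjusted p = 0.0187), and it no longer passed with upper-quartile scaling (-0.041, edgeR adjusted p = 0.327), plain library sizes, a filter at a mean of 50 counts or without CSC replicate 3. Ppp2cb (PP2A beta) was at 127, 136 and 134 CPM in the non-CSC libraries and 128, 132 and 132 CPM in the CSC libraries. These ranges overlapped, with a log2 fold change of -0.02 (95% interval -0.09 to 0.06; edgeR adjusted p = 0.711). Per kilobase of the principal transcript Ppp2cb made up 71.3% to 72.9% of PP2A catalytic RNA in non-CSC and 72.8% to 74.2% in CSC. In CPM, without division by length, Ppp2ca was the higher in every library. The order thus rests on the annotated lengths, 7.10 kilobases for Ppp2ca and 1.47 for Ppp2cb. Which transcript forms were expressed was not tested.

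The catalytic genes of calcineurin went in different directions. Ppp3ca, the most abundant per kilobase, was at 129, 133 and 138 CPM in the non-CSC libraries and 134, 131 and 131 CPM in the CSC libraries. Its groups overlapped, with a log2 fold change of -0.01 (95% interval -0.09 to 0.06; edgeR adjusted p = 0.753). Its sign was positive under 5 of the 16 alternatives, and with the chromosome's median taken off it passed as higher (0.13, edgeR adjusted p = 0.00442). Ppp3cb was at 63.9, 70.0 and 71.8 CPM in the non-CSC libraries and 54.4, 54.3 and 58.1 CPM in the CSC libraries. Here all CSC libraries were below all non-CSC libraries, with a log2 fold change of -0.30 ± 0.048 (edgeR adjusted p = 7.24e-06). Ppp3cc, at low levels, was at 2.07, 2.05 and 1.61 CPM in the non-CSC libraries and 3.16, 2.90 and 2.34 CPM in the CSC libraries. It rose without overlap, with a log2 fold change of 0.55 ± 0.15 (edgeR adjusted p = 0.00228), on counts of 57 to 87 reads per library.

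PP4, PP5 and PP6 have 1 catalytic gene each. Ppp4c was at 223, 219.8 and 219 CPM in the non-CSC libraries and 193, 206 and 192 CPM in the CSC libraries. It fell slightly and without overlap, with a log2 fold change of -0.17 ± 0.036 (edgeR adjusted p = 0.000369). Ppp5c, whose product carries its regulatory repeats in the same chain and works with the chaperone HSP90, was at 68.3, 65.6 and 63.8 CPM in the non-CSC libraries and 80.6, 73.6 and 79.1 CPM in the CSC libraries. Every CSC library was above every non-CSC library, with a log2 fold change of 0.24 ± 0.044 (edgeR adjusted p = 4.94e-05). Ppp6c was at 46.0, 46.0 and 48.5 CPM in the non-CSC libraries and 45.8, 49.8 and 49.6 CPM in the CSC libraries. Its groups overlapped, with a log2 fold change of 0.05 (95% interval -0.05 to 0.15; edgeR adjusted p = 0.386).

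**Figure D3:**
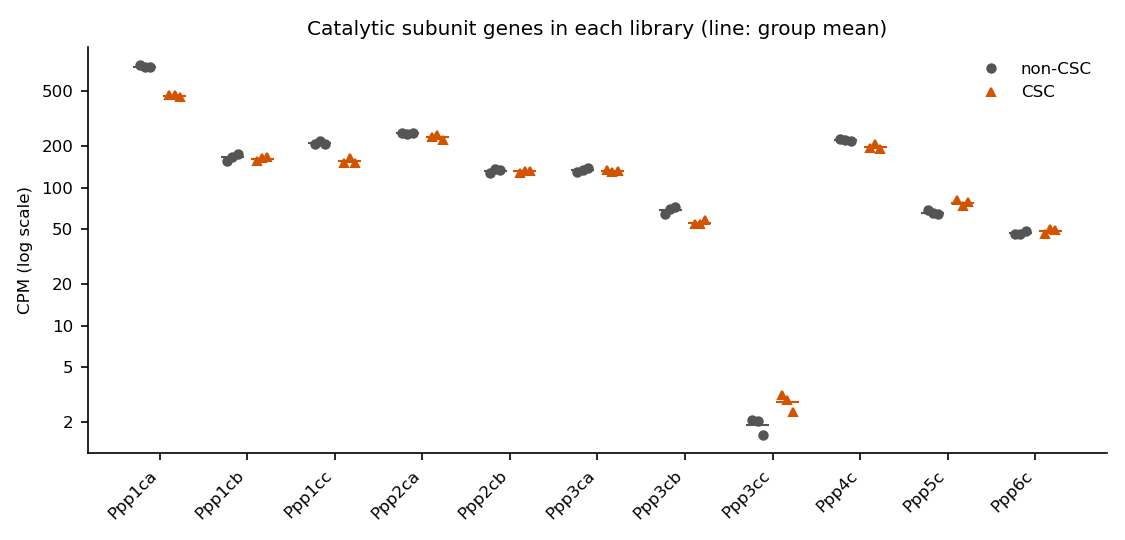
Level in CPM (vertical axis, log scale) of the 11 catalytic genes in each of the 6 libraries, with points for the libraries of the non-CSC and CSC groups. Ppp1ca is at 744 to 767 CPM in non-CSC and 454 to 468 CPM in CSC, while the points of Ppp1cb, Ppp2cb, Ppp3ca and Ppp6c overlap between the groups.

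Among the PP1 regulatory genes with a value, 14 of 25 fell (56%), 3 rose (12%) and 8 did not pass, with a median log2 fold change of -0.31. Of all genes tested 33.1% fell and 33.4% rose, and of those with a mean of at least 5 CPM 42.4% and 33.1%. These shares are also the background of the counts by class given below. The 3 inhibitor genes all passed the test, in both directions. Ppp1r14b, which encodes a phosphorylation-dependent inhibitor, was at 355, 346 and 331 CPM in the non-CSC libraries and 218, 209.7 and 212 CPM in the CSC libraries. It fell without overlap, with a log2 fold change of -0.69 ± 0.037 (edgeR adjusted p = 9.78e-14), although 37.6% of its 50-base words also occur in transcripts of other genes so its value is uncertain. Ppp1r11 (inhibitor 3) was at 60.3, 62.4 and 59.1 CPM in the non-CSC libraries and 42.4, 43.5 and 42.2 CPM in the CSC libraries. Its CSC libraries were all lower, with a log2 fold change of -0.51 ± 0.044 (edgeR adjusted p = 6.28e-10). Ppp1r2 (inhibitor 2) was at 46.4, 45.3 and 52.7 CPM in the non-CSC libraries and 65.5, 66.3 and 69.4 CPM in the CSC libraries. It was the inhibitor that rose, with no overlap and a log2 fold change of 0.48 ± 0.052 (edgeR adjusted p = 3.97e-08).

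Glycogen-targeting subunits bring PP1 to glycogen, where it activates glycogen synthase, and 3 of the 4 with a value fell. Ppp1r3b was at 25.5, 25.9 and 25.2 CPM in the non-CSC libraries and 8.60, 9.33 and 9.82 CPM in the CSC libraries. The CSC libraries were far below the others, with a log2 fold change of -1.46 ± 0.064 (edgeR adjusted p = 2.84e-15), a 2.76-fold fall. Ppp1r3f was at 4.11, 4.18 and 3.76 CPM in non-CSC and 1.96, 1.98 and 2.21 CPM in CSC. Its log2 fold change was -0.97 ± 0.12 (edgeR adjusted p = 2.99e-07). However, 52.9% of its exon bases are overlapped by Flicr, Foxp3 and Gm36995, and the strand setting is not known. Of the words of its transcript, taken as for Ppp1cc, 49.3% also occur in Gm36995. Reads from these words cannot be assigned to either gene, so the value of Ppp1r3f is uncertain. Ppp1r3e was at 9.27, 7.21 and 8.26 CPM in non-CSC and 6.42, 5.87 and 6.69 CPM in CSC, with a log2 fold change of -0.38 ± 0.096 (edgeR adjusted p = 0.00142), which was -0.20 (edgeR adjusted p = 0.0658) after the median of its chromosome was taken off. Ppp1r3c (PTG) was at 13.8, 12.4 and 13.1 CPM in non-CSC and 13.5, 14.8 and 13.2 CPM in CSC and its groups overlapped, with a log2 fold change of 0.08 (95% interval -0.06 to 0.22; edgeR adjusted p = 0.319), but it passed as higher, at 0.32 (edgeR adjusted p = 0.000286), after its chromosome's median was taken off.

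Myosin-targeting subunits direct PP1 to the myosin light chain and to other substrates at the cytoskeleton, and among the 4 with a value 1 rose, 2 fell and 1 did not pass. Ppp1r12b (MYPT2; chromosome 1, 134754658 to 134955963) was at 66.7, 66.3 and 65.5 CPM in the non-CSC libraries and 113, 110.1 and 114 CPM in the CSC libraries. This was the largest rise among the 57 genes, 1.70-fold without overlap, with a log2 fold change of 0.76 ± 0.038 (edgeR adjusted p = 2.46e-14). With each chromosome's median taken off it was 0.55, below the 0.72 of Ppp3cc. Ppp1r12c was at 95.1, 101 and 93.7 CPM in the non-CSC libraries and 66.2, 62.3 and 65.6 CPM in the CSC libraries. It fell without overlap, with a log2 fold change of -0.58 ± 0.042 (edgeR adjusted p = 2.73e-11). Ppp1r16a, of the same class, was at 24.8, 24.8 and 24.2 CPM in the non-CSC libraries and 18.7, 16.6 and 16.6 CPM in the CSC libraries. Its groups did not overlap and it fell, with a log2 fold change of -0.51 ± 0.059 (edgeR adjusted p = 8.27e-08). Ppp1r12a (MYPT1) was at 196, 181 and 186 CPM in the non-CSC libraries and 181, 179 and 191 CPM in the CSC libraries. Those ranges overlapped, with a log2 fold change of -0.03 (95% interval -0.11 to 0.05; edgeR adjusted p = 0.503). The 4 genes summed to 375 ± 6.60 CPM in non-CSC and 378 ± 9.11 CPM in CSC (SD, n = 3).

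Of the nuclear subunits, Ppp1r7 (SDS22) was at 52.0, 51.7 and 54.2 CPM in non-CSC and 62.7, 65.3 and 63.6 CPM in CSC. It rose, with a log2 fold change of 0.28 ± 0.043 (edgeR adjusted p = 4.24e-06), but this was 0.071 (edgeR adjusted p = 0.149) once its chromosome's median was taken off. Ppp1r10 (PNUTS), which acts in transcription termination, was at 113, 114 and 113 CPM in non-CSC and 119, 111 and 119 CPM in CSC, with groups that overlapped and a log2 fold change of 0.04 (95% interval -0.04 to 0.12; edgeR adjusted p = 0.383). Ppp1r8 (NIPP1) did not pass either, at -0.06 (95% interval -0.18 to 0.06; edgeR adjusted p = 0.376).

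The 3 cytoskeletal subunits all fell. Ppp1r18 (phostensin, an actin-binding subunit) was at 168, 164 and 158 CPM in the non-CSC libraries and 103, 89.4 and 97.4 CPM in the CSC libraries. Its CSC libraries were all lower, with a log2 fold change of -0.76 ± 0.045 (edgeR adjusted p = 2.91e-12). Ppp1r9b (spinophilin, which binds actin) was at 171, 175 and 158 CPM in non-CSC and 138, 135 and 142 CPM in CSC, again without overlap, with a log2 fold change of -0.28 ± 0.040 (edgeR adjusted p = 2.2e-06). Ppp1r9a (neurabin) was at 1.24, 1.73 and 1.24 CPM in non-CSC and 0.436, 0.954 and 1.03 CPM in CSC, with a log2 fold change of -0.79 ± 0.24 (edgeR adjusted p = 0.00699) on a summed count of 212, and without CSC replicate 1 it was -0.51 (edgeR adjusted p = 0.0529).

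Among the remaining PP1 subunits, 4 of 8 fell and 4 did not pass. Ppp1r13l (iASPP, an inhibitor of p53; chromosome 7, 19359724 to 19378540) was at 46.1, 47.7 and 47.8 CPM in the non-CSC libraries and 17.3, 14.0 and 15.1 CPM in the CSC libraries. It had the largest fall among the 57 genes, 3.05-fold without overlap, with a log2 fold change of -1.61 ± 0.062 (edgeR adjusted p = 3.07e-16). Its relative Ppp1r13b (ASPP1), whose product promotes p53 activity, was at 25.3, 24.8 and 24.2 CPM in the non-CSC libraries and 16.7, 16.2 and 16.1 CPM in the CSC libraries. It fell as well, with a log2 fold change of -0.60 ± 0.056 (edgeR adjusted p = 2.13e-09). Ppp1r35, which acts at centrioles, was at 31.5, 31.1 and 30.3 CPM in the non-CSC libraries and 21.0, 18.5 and 18.3 CPM in the CSC libraries. Its CSC libraries were also all below the non-CSC libraries, with a log2 fold change of -0.69 ± 0.058 (edgeR adjusted p = 4.3e-10).

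Ppp1r15b (CReP) encodes the constitutive subunit that directs PP1 to the translation factor eIF2 alpha. It was at 303, 308 and 310.2 CPM in the non-CSC libraries and 242, 249 and 252 CPM in the CSC libraries. The groups did not overlap, with a log2 fold change of -0.31 ± 0.035 (edgeR adjusted p = 4.03e-08). Ppp1r37 (-0.07), Ppp1r21 (0.10), Ppp1r27 (0.10) and Ppp1r32 (0.22) did not pass, with edgeR adjusted p from 0.108 to 0.727. Ppp1r32 and Ppp1r27, with summed counts of 89 and 163, were the 2 members just inside the boundary of 60, and Ppp4r4 with 59 was just outside it.

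**Figure D4:**
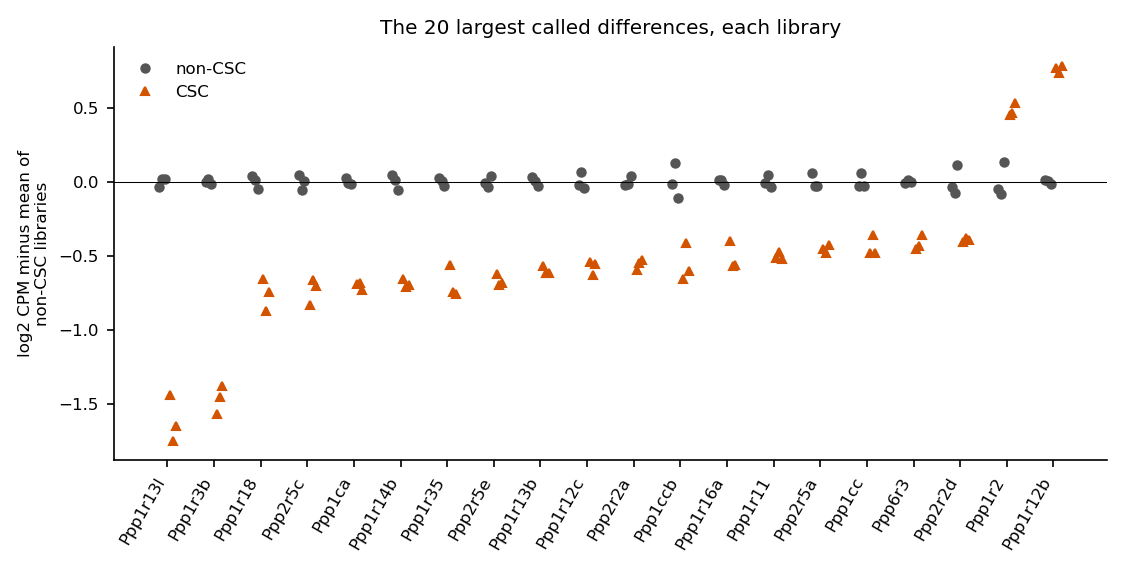
Level in each library relative to the mean of the non-CSC libraries, on a log2 scale, for the 20 subunit genes of at least 5 CPM with the largest changes that passed the test. For Ppp1r13l and Ppp1r3b all 3 CSC points lie more than 1 log2 unit below the non-CSC mean, and Ppp1r2 and Ppp1r12b lie above it.

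The PP2A holoenzyme joins a catalytic subunit to a scaffold (A) and to 1 of several B subunits that choose substrates. Of its 12 regulatory genes with a value, 9 fell, none rose and 3 did not pass, with a median log2 fold change of -0.30 (background 33.1% lower and 33.4% higher), though Ppp2r5b passed as higher under 4 of the 16 alternatives tried. Both scaffold genes fell slightly. Ppp2r1a was at 270.4, 273 and 259.7 CPM in the non-CSC libraries and 245, 240.4 and 238 CPM in the CSC libraries. It fell without overlap, with a log2 fold change of -0.15 ± 0.035 (edgeR adjusted p = 0.000656). Ppp2r1b had -0.10 ± 0.036 (edgeR adjusted p = 0.0154), and -0.045 (edgeR adjusted p = 0.29) with upper-quartile scaling. Exons of Ppp2r1b are overlapped by Sik2 over 22.2% of their bases, and those of Ppp2ca by other genes over 41.3%.

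Both B genes with a value fell. Ppp2r2a and Ppp2r2d belong to the B55 group, whose holoenzymes dephosphorylate CDK substrates at the end of mitosis. Ppp2r2a was at 157, 158 and 164 CPM in the non-CSC libraries and 105, 109 and 111 CPM in the CSC libraries. The CSC libraries were all lower, with a log2 fold change of -0.56 ± 0.037 (edgeR adjusted p = 4.63e-12). Ppp2r2d was at 47.4, 46.0 and 52.4 CPM in the non-CSC libraries and 36.7, 37.2 and 37.0 CPM in the CSC libraries. It fell without overlap too, with a log2 fold change of -0.40 ± 0.051 (edgeR adjusted p = 3.86e-07). The other B55 genes, Ppp2r2b and Ppp2r2c, were at summed counts of 20 and 25 and have no value.

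The B56 genes (B prime) were lower in CSC in 4 of 5 cases, and they summed to 501 ± 12.7 CPM in non-CSC and 369 ± 1.28 CPM in CSC (SD, n = 3). Ppp2r5c (gamma; chromosome 12, 110447144 to 110583075) was at 142, 132 and 138 CPM in the non-CSC libraries and 77.1, 86.3 and 84.2 CPM in the CSC libraries. It had the largest fall of PP2A, without overlap, with a log2 fold change of -0.73 ± 0.043 (edgeR adjusted p = 7.18e-13), where its nearest genes had a median of -0.43. With each chromosome's median taken off Ppp2r5c was at -0.40, a smaller fall than the -0.66 of Ppp2r5a. Ppp2r5e (epsilon) was at 71.6, 70.3 and 73.9 CPM in the non-CSC libraries and 46.6, 44.4 and 44.7 CPM in the CSC libraries. It also fell without overlap, with a log2 fold change of -0.67 ± 0.043 (edgeR adjusted p = 3.25e-12), and was at -0.33 with its chromosome's median taken off. Ppp2r5a (alpha) was at 107, 101 and 101 CPM in the non-CSC libraries and 75.2, 74.0 and 76.8 CPM in the CSC libraries. It fell by a log2 fold change of -0.45 ± 0.039 (edgeR adjusted p = 5.97e-10), and 25.0% of its 50-base words occur in transcripts of other genes.

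Of the remaining B56 genes 1 fell. Ppp2r5d (delta) was at 162, 152 and 152 CPM in the non-CSC libraries and 134, 126 and 129 CPM in the CSC libraries. It fell without overlap, with a log2 fold change of -0.26 ± 0.038 (edgeR adjusted p = 2.75e-06). Ppp2r5b (beta) was at 32.4, 33.9 and 34.1 CPM in non-CSC and 36.8, 36.3 and 34.8 CPM in CSC. Although these groups did not overlap, the gene did not pass, with a log2 fold change of 0.10 (95% interval 0.00 to 0.20; edgeR adjusted p = 0.0674). It passed as higher with upper-quartile scaling (0.16, edgeR adjusted p = 0.0055), plain library sizes (0.17, edgeR adjusted p = 0.00409), a filter at a mean of 50 counts (0.13, edgeR adjusted p = 0.0188) and each chromosome's median taken off (0.34, edgeR adjusted p = 1.45e-06).

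Of the B double prime genes, Ppp2r3c was at 17.6, 18.7 and 19.4 CPM in non-CSC and 13.2, 15.4 and 15.6 CPM in CSC. It fell by a log2 fold change of -0.34 ± 0.069 (edgeR adjusted p = 0.000164), and was at -8.18e-05 (edgeR adjusted p = 1) once the median of chromosome 12 was taken off. Ppp2r3a (0.08, 95% interval -0.05 to 0.22, edgeR adjusted p = 0.278) and Ppp2r3d (-0.16, 95% interval -0.44 to 0.11, edgeR adjusted p = 0.295) did not pass.

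Ppp3r1, the regulatory B subunit of calcineurin, which binds calcium, was at 113, 117 and 125 CPM in the non-CSC libraries and 113, 113 and 117 CPM in the CSC libraries. Its groups overlapped, with a log2 fold change of -0.05 (95% interval -0.13 to 0.03; edgeR adjusted p = 0.264). Ppp3r2, the other gene of this kind, had 0 counts in all libraries.

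PP4 regulatory genes went both ways. Ppp4r3a, a substrate-binding subunit, was at 70.3, 71.5 and 73.0 CPM in non-CSC and 55.3, 57.6 and 57.9 CPM in CSC. It fell by a log2 fold change of -0.33 ± 0.041 (edgeR adjusted p = 2.52e-07), but was at 0.0045 (edgeR adjusted p = 0.932) after the median of chromosome 12 was taken off. Its relative Ppp4r3b was at 43.6, 47.2 and 50.4 CPM in non-CSC and 55.2, 59.7 and 58.3 CPM in CSC. That gene rose without overlap, with a log2 fold change of 0.29 ± 0.051 (edgeR adjusted p = 2.57e-05).

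Ppp4r2, which joins the catalytic subunit to the Ppp4r3 proteins, was at 103, 113 and 112 CPM in non-CSC and 118, 122 and 119 CPM in CSC. It rose by a log2 fold change of 0.13 ± 0.039 (edgeR adjusted p = 0.0068), but no longer passed without non-CSC replicate 1 (0.077, edgeR adjusted p = 0.0774) or with the chromosome offset. Ppp4r1 was at 153, 155 and 153 CPM in non-CSC and 152, 152 and 151 CPM in CSC. This gene did not pass, with a log2 fold change of -0.02 (95% interval -0.09 to 0.05; edgeR adjusted p = 0.577).

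Of the 3 PP6 regulatory genes 2 fell. Ppp6r3 was at 168, 171 and 169 CPM in the non-CSC libraries and 123, 125 and 132 CPM in the CSC libraries. Every CSC library was lower, with a log2 fold change of -0.42 ± 0.037 (edgeR adjusted p = 7.52e-10). Ppp6r1 was at 186, 181 and 175 CPM in non-CSC and 176, 175 and 172 CPM in CSC. Its groups overlapped, with a log2 fold change of -0.05 (95% interval -0.13 to 0.02; edgeR adjusted p = 0.21). Ppp6r2 had -0.20 ± 0.081 (edgeR adjusted p = 0.0314), a call that was lost under 7 of 16 alternatives, among them DESeq2.

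Other genes that did not pass did so under an alternative. Without non-CSC replicate 1, Ppp1cb passed as lower (-0.10, edgeR adjusted p = 0.0247), as did Ppp3r1 (-0.093, edgeR adjusted p = 0.0457), which also passed as lower with the chromosome offset (-0.10, edgeR adjusted p = 0.028). Ppp2r3d passed as lower without non-CSC replicate 3 (-0.31, edgeR adjusted p = 0.0419). Plain library sizes brought Ppp6c (0.11, edgeR adjusted p = 0.0436), Ppp1r10 (0.10, edgeR adjusted p = 0.0206) and Ppp1r21 (0.17, edgeR adjusted p = 0.0102) past the threshold as higher. The last 2 also passed with upper-quartile scaling, and Ppp1r21 with the filter at a mean of 50 counts.

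Many subunit genes without a value encode inhibitors or targeting subunits known from muscle, brain or liver. Of the 20, 5 had 0 counts in every library, Ppp1r1c, Ppp1r17, Ppp1r3d, Ppp3r2 and Ppp2r2cos. The last is an antisense long non-coding RNA that matched by symbol and encodes no subunit. The other genes of the 20 had summed counts of 1 to 59. Among them were Ppp1r1a (inhibitor 1, 1 count) and Ppp1r1b (DARPP-32, 7 counts), the glycogen-targeting genes Ppp1r3a (9 counts) and Ppp1r3g (6 counts), and Ppp1r14a, Ppp1r14c and Ppp1r14d with 16, 12 and 6 counts. The rest were Ppp1r36, Ppp1r26, Ppp1r14bl, Ppp1r42 and Ppp1r16b, with 1, 2, 2, 9 and 16 counts, and the Ppp2r2b, Ppp2r2c and Ppp4r4 genes named above.

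Genes next to the subunit genes were examined as well. For each subunit gene the median log2 fold change of the 30 nearest tested genes, 15 on each side, was taken. Near a chromosome end fewer were available: 25 for Ppp1r21, 23 for Ppp1r3f, 22 for Ppp1r9a, 20 for Ppp6r3 and 15 for Ppp2r3d. Around Ppp1ca the median was -0.63, near the gene's own -0.70, and around Ppp1r13b -0.57, near its -0.60. The median of chromosome 12 was -0.34 over 615 tested genes, and all 5 subunit genes there, Ppp2r3c, Ppp2r5e, Ppp4r3a, Ppp2r5c and Ppp1r13b, fell. In contrast, the medians around Ppp1r13l (-0.15), Ppp1r3b (-0.07) and Ppp1r12c (-0.10) were nearer 0, and that around Ppp1r12b was 0.20.

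Of the 57 genes, 38 were below the median of their neighbours, and the median difference was -0.12. There were 16 subunit genes with a neighbours' median of -0.2 or lower, of which 10 fell. Of the subunit genes that fell, 24 lay at least 0.2 below their neighbours. These counts were not made for all genes tested, so they have no background beside them. The part of the neighbouring genes in the result was not tested. With each chromosome's median taken off, 30 subunit genes fell and 8 rose, against 5932 and 5622 of all 17630 genes tested. Ppp1ca still fell under that offset (log2 fold change of -0.46, edgeR adjusted p = 3.96e-11).

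Several other genes share sequence with, or are overlapped by, other genes, and their values are uncertain to that extent. Of the 50-base words of Ppp4r2, Ppp3r1, Ppp2r3c and Ppp1r2, 19.0%, 14.7%, 12.6% and 9.93% occur in transcripts of other genes. Exon bases of Ppp1cb and Ppp1ca are overlapped by other genes over 17.5% and 16.5%.

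**Figure D5:**
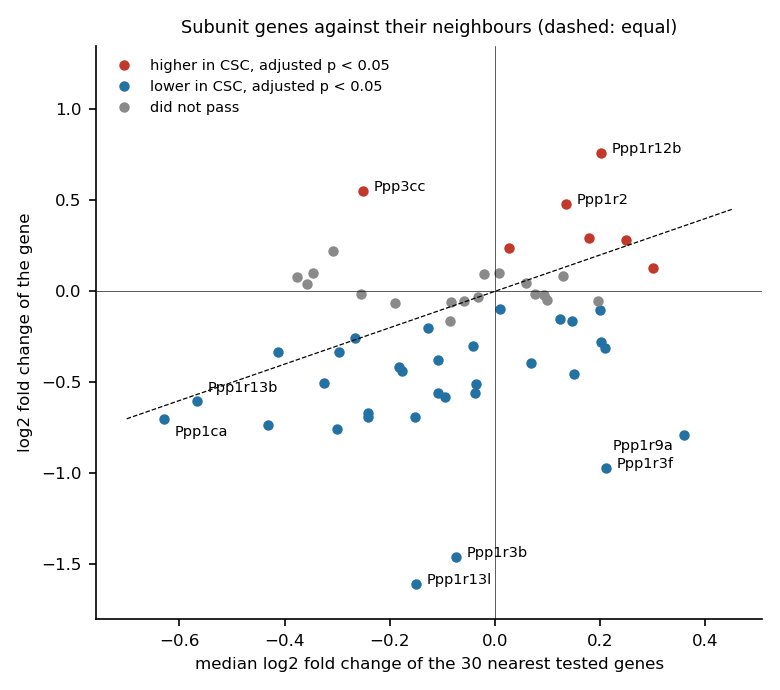
Log2 fold change of each of the 57 subunit genes (vertical axis) against the median of its 30 nearest tested genes, or fewer near a chromosome end (horizontal axis). A dashed line marks where both are equal. Ppp1ca and Ppp1r13b lie near that line, while Ppp1r13l, Ppp1r3b, Ppp1r3f and Ppp1r9a lie far below it and Ppp3cc and Ppp1r12b above it.

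Genes that act with the phosphatases were mixed. Each list is described by its counts and median, beside all genes tested, of which 33.1% were lower and 33.4% higher with a median of 0.01. The glycogen and calcineurin lists, with 38.5% and 40.0% in each direction, were near that background. Of 17 PP1 partners without a Ppp1r symbol, 8 fell and 5 rose, with a median of -0.11. Mras, a RAS-related GTPase that joins Shoc2 and PP1 in a complex that dephosphorylates RAF kinases, was at 84.6 ± 4.61 CPM in non-CSC and 179 ± 3.47 CPM in CSC (SD, n = 3). It rose by 1.08 ± 0.040 (edgeR adjusted p = 1.28e-16), while Shoc2 fell by 0.56 ± 0.038 (edgeR adjusted p = 9.34e-12) on the log2 scale. Akap1, a mitochondrial anchor protein (0.64), and Sh2d4a (0.83) were also higher.

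The glycogen genes, to which the Ppp1r3 subunits direct PP1, were 5 lower and 5 higher of 13, with a median of -0.21. Stbd1, which binds glycogen, was at 44.1 ± 0.648 CPM in non-CSC and 15.5 ± 0.913 CPM in CSC (SD, n = 3). It fell by a log2 fold change of -1.51 ± 0.055 (edgeR adjusted p = 8.01e-17). The synthase Gys1 also fell (-0.83 ± 0.044, edgeR adjusted p = 1.02e-13). Ugp2, which makes the sugar donor UDP-glucose, rose (0.69 ± 0.043, edgeR adjusted p = 5.34e-12).

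Of 7 myosin light chain and kinase genes, 3 fell and 2 rose. The kinases Mylk (0.73 ± 0.069, edgeR adjusted p = 2.87e-09) and Rock1 (0.48 ± 0.043, edgeR adjusted p = 1.09e-09) were higher. Cit (-0.50), a kinase of cytokinesis, and the light chain Myl12a (-0.52) were lower. All 5 genes of eIF2 alpha and its kinases passed, 2 lower and 3 higher. Eif2s1, which encodes the substrate of Ppp1r15b's complex, fell by 0.66 ± 0.057 (edgeR adjusted p = 2.19e-07) on the log2 scale, Eif2ak4 (GCN2) fell (-0.35 ± 0.044, edgeR adjusted p = 2.26e-07), and Eif2ak2 (PKR) rose (0.46 ± 0.041, edgeR adjusted p = 9.19e-10).

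PP2A's own modifiers were 6 lower and 4 higher of 12, with a median of -0.08. Anp32a, an inhibitor of PP2A, fell (-0.80 ± 0.058, edgeR adjusted p = 2.73e-11). Lcmt1, which methylates the catalytic subunit, rose (0.51 ± 0.069, edgeR adjusted p = 6.97e-07), as did Arpp19, an inhibitor of B55 holoenzymes (0.47 ± 0.047, edgeR adjusted p = 6.82e-09), and Igbp1, a carrier of free catalytic subunits (0.37 ± 0.053, edgeR adjusted p = 1.72e-06). The STRIPAK complex, a PP2A assembly with striatins in place of B subunits, had 7 lower and 6 higher of 14. Its scaffold Strn3 fell (-0.89 ± 0.042, edgeR adjusted p = 1.04e-14) while Strn rose (0.42 ± 0.042, edgeR adjusted p = 7.46e-09). Cttnbp2nl (-0.65) and the kinase Stk24 (-0.42) fell.

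Calcineurin partners and substrates were 6 lower and 6 higher of 15, with a median of -0.03. Rcan2, which encodes a calcineurin inhibitor, was at 2.22 ± 0.136 CPM in non-CSC and 10.4 ± 0.717 CPM in CSC (SD, n = 3). It rose by a log2 fold change of 2.21 ± 0.10 (edgeR adjusted p = 5.16e-15), and Rcan1, of the same family, by 0.72 ± 0.078 (edgeR adjusted p = 2.89e-08). Calm2, one of the calmodulin genes, rose (0.44 ± 0.036, edgeR adjusted p = 2.09e-10), and Crtc3, a substrate, fell (-0.65 ± 0.046, edgeR adjusted p = 1.51e-11). Of the 3 ankyrin repeat subunits of PP6, Ankrd44 rose (0.97 ± 0.054, edgeR adjusted p = 2.01e-13), Ankrd28 fell (-0.44 ± 0.037, edgeR adjusted p = 4.33e-10) and Ankrd52 did not pass.

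Promoters were read from RefSeq (GRCm38.p6, 250 bases before each start), which gave 46 of the 57 genes. The cyclic AMP response element, searched on both strands as TGACGTCA, occurred in 3 of the 46 (6.52%), against 1.55% of all 32851 promoters and 2.63% of the tested genes with one. The 3 genes, Ppp1r12c, Ppp2ca and Ppp2r2d, were all lower in CSC, although Ppp2ca no longer passed under 4 alternatives. Of the 57 subunit genes 56.1% were lower, and of genes tested with a mean of at least 5 CPM 42.4%. A link between the element and the direction was not tested. The stretches shown for Ppp2ca and Ppp2r2d also lie within a GENCODE M21 transcript of the same gene, and that of Ppp1r12c does not. Matches of the 3 genes are shown with 30 bases each, with the element in capitals.
Ppp1r12c, chr7:4501731-4501760, minus strand: ggtcggcgccgTGACGTCAatataccgagc
Ppp2ca, chr11:52098787-52098816, plus strand: tgacgctggcgTGACGTCAccacgccgggc
Ppp2r2d, chr7:138846327-138846356, plus strand: gcggagggggaTGACGTCAtccggcggggc

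Other motifs were searched in the same way and are set beside the share of tested genes. The Sp1 box (GGGCGG) was in 31 of the 46 (67.4%, against 56.4%), the CCAAT box in 17 (37%, against 39.6%), the hypoxia element core ACGTG in 10 (21.7%, against 23.8%), and the E-box CACGTG, which holds that core, in 2 (4.35%, against 9.22%). The amino acid response element (TGATGNAAT) was in 2, Ppp1r10 and Ppp2r1b (4.35%, against 0.598%, and 0.816% of all promoters). Of these 2 genes, Ppp1r10 did not pass the test and Ppp2r1b no longer passed under 3 alternatives. A match is a description of these letters and not a measured binding site.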

How the data were processed

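The authors deposited raw read counts per gene symbol for 6 libraries, 3 CSC and 3 non-CSC, with no normalization. Per the submitters' processing notes the genome build was GRCm38, and RNA was extracted with Trizol, per the labels' protocols. Neither aligner, counting tool, annotation nor strand setting is given in the sources used here. Library totals were 27099879 to 35971131, and low counts carry counting error; the labels name no molecular identifiers, so reads may not be independent molecules.

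Genes were filtered with filterByExpr, which left 17630, scaled with TMM (factors 0.974 to 1.03) and fitted with edgeR 4.0.16 in R 4.3.3 (quasi-likelihood, robust, no covariate, Benjamini-Hochberg adjustment over all tested genes). The SE is the log2 fold change divided by the square root of F. Shares of a subunit among related genes were computed per kilobase of the GENCODE M21 principal transcript, and CPM was used across genes for filters, sums and the choice of the highest member of a class. Positions are RefSeq GRCm38.p6.

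Values in every library are given for all catalytic subunits, for the 20 members with the largest changes that passed the test at a mean of at least 5 CPM, and for the highest member of each regulatory class. Up to 4 genes of each partner list, by the same criteria, are named, and other members may be named with their values. Not every gene within this rule is reported here. Members and lists were chosen with earlier results of these data known. Markers of other cell types were taken from lists of the same kind. The alternatives tried were 3 other scalings (upper-quartile, RLE and plain library size), 2 other filters (1 count in all, or a mean of at least 50 counts), DESeq2 1.42.0, limma-voom (limma 3.58.1), the robust setting off, a replicate block, a chromosome offset and leaving out each library. The fit was tested on simulated counts.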

Additional observations from a re-analysis of the deposited data

How the results depend on the processing

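Of the 57 subunit genes, 31 kept their direction and their side of the threshold under all 16 alternatives, and 9 of the 39 that passed the test lost the call or changed sign under at least 1. Leaving out each library gave 37 to 40 subunit genes that passed (30 to 34 lower, 6 to 7 higher), 6 to 8 catalytic and 30 to 31 regulatory, 80 to 88 partner genes and 11175 to 11578 genes in all, against 39, 32, 7, 7, 31, 88 and 11732. Plain library sizes gave 11 subunit genes higher in place of 7. With the replicate block, 39 subunit genes passed, none with another call, and 11680 genes in all. Same-numbered libraries did not deviate together (correlations of -0.0112, -0.0257 and -0.0216). These values cannot show whether libraries of the same number were prepared together, and the labels do not say.

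Of the genes that passed the test, Ppp4r3a changed sign, and the others that did so had not passed. The cause was not tested. With the chromosome offset, Ppp6c was -0.00169, Ppp1cb 0.0161, Ppp4r3a 0.00447 and Ppp3ca 0.127. With a mean of at least 50 counts, Ppp4r1 was 0.00906, Ppp1r12a 0.00157, Ppp3ca 0.0176 and Ppp2cb 0.0151. With plain library sizes, Ppp2cb was 0.0496, Ppp4r1 0.0434, Ppp3r1 0.0147, Ppp3ca 0.0519, Ppp6r1 0.0144, Ppp1cb 0.0204, Ppp1r8 0.00745, Ppp1r12a 0.036 and Ppp1r37 0.000915. With upper-quartile scaling, Ppp2cb was 0.0424, Ppp1r12a 0.0288, Ppp4r1 0.0362, Ppp3r1 0.00765, Ppp1r8 0.000181, Ppp3ca 0.0449, Ppp6r1 0.00707 and Ppp1cb 0.0133. Over the fits that leave out 1 library, Ppp1r32 ranged from -0.0352 (without CSC replicate 1) to 0.387, Ppp1r27 from -0.0798 (without non-CSC replicate 3; -0.0348 without CSC replicate 2) to 0.249, Ppp1r8 from -0.115 to 0.00332 (without non-CSC replicate 1) and Ppp3ca from -0.0493 to 0.00294 (without non-CSC replicate 3). The lowest summed counts were those of Ppp1r32, Ppp1r27 and Ppp1r9a (89, 163 and 212), and their SEs were 0.30, 0.23 and 0.24.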

Other observations

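Serine-threonine phosphatases of other families were more often higher in CSC. Of 22 tested genes of the metal-dependent (PPM) and related families, 12 rose, 6 fell and 4 did not pass the edgeR test, with a median log2 fold change of 0.14. Of all genes tested 33.4% were higher and 33.1% lower, and of those with a mean of at least 5 CPM 33.1% and 42.4%. Ppm1j, a phosphatase of the PPM family, was at 13.4 ± 0.317 CPM in non-CSC and 2.27 ± 0.184 CPM in CSC (SD, n = 3). It fell by a log2 fold change of -2.56 ± 0.093 (edgeR adjusted p = 8.9e-17). Ppm1b also fell (-0.52 ± 0.047, edgeR adjusted p = 1.3e-09). Ppm1h (0.90 ± 0.083, edgeR adjusted p = 1.49e-09) and Pptc7, a mitochondrial phosphatase (0.58 ± 0.038, edgeR adjusted p = 3.74e-12), rose. The difference between these families and the Ppp subunit genes was not tested.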
